A study of Homo sapiens with 3 samples.

Results

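The histone genes of AGS cells, a human gastric adenocarcinoma line, were taken from an RNA sequencing table of 50868 genes by name. Names beginning with HIST1H to HIST4H, H2AF, H3F3 or H1F were kept, and names with a pseudogene ending were left out, which gave 92 genes out of 117 such names. Of these, 70 were coding genes of the histone clusters, 16 were coding histone variants, 5 were pseudogenes by GENCODE 29 or had no match there, and 1 was an antisense RNA. The cells were kept in 6-well plates for 48 h with DMSO as the negative control, with 12 µM SFA or with 18 µM SFE, with 1 library for each condition. SFA and SFE are code names that the labels do not explain, and their doses differ. Each difference below is between single libraries, with no replicate to measure how far cultures vary and hence no test between conditions.

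Histones are the proteins around which DNA is wound. H2A, H2B, H3 and H4 form the nucleosome core, and H1 binds the linker DNA between nucleosomes. The clustered genes are replication-dependent: they are transcribed mainly in S phase, lack introns in their classical form, and give mRNAs that end in a conserved stem-loop instead of a poly(A) tail. SLBP, the stem-loop binding protein, holds this hairpin through 3′ end cutting, translation and decay. The variant genes, such as H2AFZ and H3F3A, are expressed outside S phase as well, mostly as polyadenylated mRNAs. Libraries were made from total RNA after removal of ribosomal RNA, per the labels' protocols, so RNA without a poly(A) tail was not selected against.

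The hairpin was searched for along the whole length of annotated transcripts, not in 3′ untranslated regions alone. It marks the replication-dependent mRNAs and is the reason their detection depends on how a library is made. The pattern was a fully paired stem of 6 bases, opening with GG and closing with a T-A pair, around a loop of 4 bases that begins with TT. It was present in 30 of 70 clustered genes, namely in 30 of the 36 whose annotation holds at least 30 bases of 3′ untranslated region and in none of the 34 with less. Among 19598 other coding genes, 25 held it somewhere in a transcript (0.128%). In the sequences, read from GENCODE 29 transcripts, capitals mark the paired stem and lower case the loop. The form named for HIST1H4H occurred in 5 clustered genes, all H4, and that of HIST1H4I in 3, also H4. The form of HIST1H2AC occurred in 17 (6 H2A, 8 H2B and 3 H3 genes) and that of HIST1H2BC in 5 (3 H2B and 2 H3). H2AFX was the 1 variant out of 16 with a hairpin.
HIST1H4H: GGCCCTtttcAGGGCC
HIST1H4I: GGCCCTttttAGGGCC
HIST1H2AC: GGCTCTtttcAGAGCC
HIST1H2BC: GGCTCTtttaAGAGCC
H2AFX: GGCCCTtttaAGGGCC

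The start regions of 5 genes are shown because HIST1H4H and H2AFJ gave the largest differences among the members, and HIST1H4J, HIST4H4 and HIST1H2AG are relatives that encode the same or a similar protein. Each run is the 120 bases before the RefSeq start on GRCh38.p14, written 5′ to 3′ on the gene's strand. Capitals mark the core of the H4 element, GGTCCG. They also mark a TATA box, spelled TATAAA here. A CCAAT box is the last element marked, and each was read on both strands, so that a box on the other strand appears reversed and complemented. HIST1H4H lies at chr6:26285535-26285654 (minus strand), HIST1H4J at chr6:27823972-27824091 (plus), HIST4H4 at chr12:14771132-14771251 (minus), H2AFJ at chr12:14774285-14774404 (plus) and HIST1H2AG at chr6:27132923-27133042 (plus).
HIST1H4H: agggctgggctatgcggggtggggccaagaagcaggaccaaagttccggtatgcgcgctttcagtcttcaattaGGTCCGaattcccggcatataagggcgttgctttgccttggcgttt
HIST1H4J: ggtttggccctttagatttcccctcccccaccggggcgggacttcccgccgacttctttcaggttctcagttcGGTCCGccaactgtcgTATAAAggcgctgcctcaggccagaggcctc
HIST4H4: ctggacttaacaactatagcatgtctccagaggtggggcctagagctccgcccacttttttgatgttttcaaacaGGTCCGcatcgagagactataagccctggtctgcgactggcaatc
H2AFJ: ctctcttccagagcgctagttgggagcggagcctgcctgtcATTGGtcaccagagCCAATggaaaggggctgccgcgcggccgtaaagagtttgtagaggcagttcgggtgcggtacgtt
HIST1H2AG: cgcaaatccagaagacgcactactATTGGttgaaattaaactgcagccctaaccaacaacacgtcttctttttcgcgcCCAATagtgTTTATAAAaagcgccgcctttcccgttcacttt

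All 3 H4 genes shown carry the H4 element core close to their starts. Over the RefSeq windows from 250 bases before to 50 after the start, GGTCCG was found in 12 of 13 H4 genes and in 11.3% of 35116 promoters. TATAAA was found in 44 of 65 clustered genes against 11.5% of all promoters. CCAAT was found in every H1, H2A, H2B and H3 promoter matched and in 3 of 13 H4 promoters, against 34.6% of all. The octamer ATTTGCAT was found in 14 of 18 H2B and 11 of 16 H2A promoters and in no H1, H3 or H4 promoter, against 1.77% of all. Promoters of 79 of the 92 members were matched in the RefSeq table, and these matches describe letters only. Windows of head-to-head H2A and H2B genes overlap, so that 1 match can count for both.

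The DMSO, SFA and SFE libraries held 18767232, 13639844 and 13644676 counts. Of 6 epithelial markers, 4 passed 1 FPKM, with KRT8 and KRT18 at folds of 0.536 and 0.547 with SFA and 0.556 and 0.551 with SFE, and KRT7 and CLDN4 at 1.37 and 1.33 with SFA and 1.28 and 1.16 with SFE. KRT18 was the highest of them at 292 to 534 FPKM, EPCAM and KRT19 stayed under 1 FPKM, and none of 6 leukocyte and 4 endothelial markers reached 1 FPKM. Of 7 fibroblast markers, 4 passed 1 FPKM, and the list summed to 30.9, 16.8 and 19.9 FPKM. COL1A1, COL3A1 and PDGFRB stood at folds of 0.530, 0.176 and 0.412 with SFA and 0.636, 0.283 and 0.468 with SFE. THY1 went the other way, at 1.51 and 1.69. COL1A2, DCN and LUM stayed under 1 FPKM, with COL1A2 at 1 count with DMSO and 0 in both treated libraries. The part of these markers in the results below was not tested. In bulk RNA, fewer cells in S phase and less histone mRNA per cell cannot be told apart. Of 20 S phase genes, 9 were higher and 11 lower with SFA and 12 higher and 8 lower with SFE, with median log2 differences of −0.04 and 0.04. Over all 11680 genes, 6002 were higher and 5672 lower with SFA and 6445 higher and 5228 lower with SFE. None of the 20 was 2-fold apart, where 1.36% of all genes were higher and 1.34% lower by that much with SFA and 1.37% and 1.01% with SFE, so that a count of 0 in a list of this size says little.

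The clustered histone genes took 1.56%, 1.50% and 1.57% of all counts in the DMSO, SFA and SFE libraries. H2A genes held the largest part of these counts in each library, 37.8%, 41.1% and 39.3%. Levels between genes are given as CPM (counts scaled to a fixed library total) per kilobase of merged exons, because the deposited FPKM uses a gene length that is longer than the merged exons for some members. On that scale HIST2H2AC, an H2A gene of the cluster on chromosome 1, was highest with 2543, 2488 and 2659 in the DMSO, SFA and SFE libraries. It was followed by the H3 gene HIST1H3B, at 2314, 2230 and 2230, and the H2A gene HIST1H2AM, at 2188, 2028 and 2186. The order of HIST1H3B and HIST1H2AM was the same in all 3 libraries, but their spread over libraries is of the size of the gap between them. HIST1H2BO was the highest H2B gene at 1230, 1108 and 1199. HIST1H4J was the highest H4 gene at 887, 794 and 855. HIST1H1C and HIST1H1E led the linker histones, at 678, 570 and 615 and at 615, 591 and 571. Genes of 1 class differed widely: with DMSO, H3 genes that passed ran from 4.75 (HIST1H3E) to 2314 and H2B genes from 7.17 (HIST3H2BB) to 1230. The 10 members with the most counts held 47.0%, 50.3% and 48.1% of the clustered counts.

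**Figure D1:**
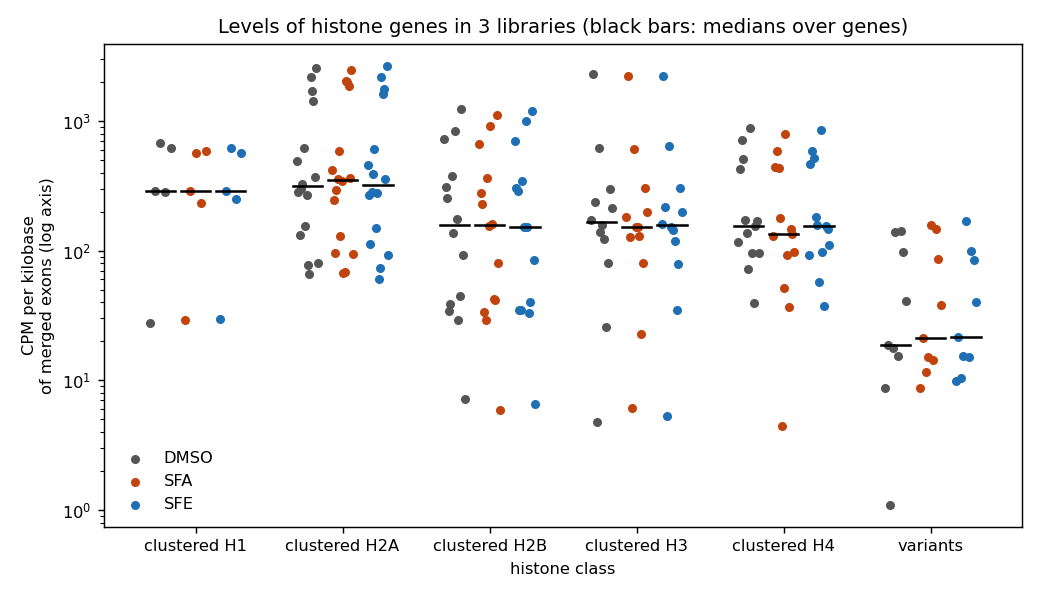
Level of each histone gene that reached 1 FPKM (but HIST2H2BE, whose deposited span differs from GENCODE 29), in CPM per kilobase of merged exons (log axis), by class and library (grey DMSO, red SFA, blue SFE; 1 point a gene, black bars medians over genes). Class medians move little between libraries, from 313 to 351 for H2A and from 134 to 155 for H4, while 1 H4 gene drops to 4.47 with SFA and 1 variant is at 1.10 with DMSO.

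A member was compared where it reached 1 FPKM in at least 1 library, and 61 of the 70 clustered genes did. The other 9 (HIST1H1T, HIST1H2AA, HIST1H2BA, HIST1H2BB, HIST1H2BE, HIST1H3C, HIST1H4F, HIST1H4G and HIST3H3) had at most 23 counts, and 2 of them had 0 in all libraries. HIST1H1T, HIST1H2AA and HIST1H2BA are known as testis histones. The pass was not a matter of a few reads, since each gene that passed had at least 219 counts in its highest library.

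The clustered genes stayed close to their DMSO levels with both compounds. On the log2(FPKM + 1) scale, 20 of the 61 were higher and 41 lower with SFA, with a median difference of −0.06 against 0.01 over all 11680 genes tested. A difference of at least 2-fold was reached upward by none and downward by 1, HIST1H4H, against 1.36% and 1.34% of all genes. With SFE, 26 were higher and 35 lower (20 and 41 with TMM or median-ratio scaling), with a median of −0.03 against 0.03 over all genes. None reached 2-fold in either direction with SFE, against 1.37% and 1.01% of all genes. Both comparisons use the same DMSO library, so their medians and counts are not independent.

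Folds of counts divided by the library total are given with 95% intervals by the exact conditional (Clopper-Pearson) method, which cover counting error only. Among clustered genes with 10 or more counts in a library (62 genes), the interval lay above 1 for 10 and below 1 for 28 with SFA, against 23.5% and 23.4% of 16388 genes. With SFE it lay above 1 for 13 and below 1 for 21, against 25% and 19.6% of genes. These shares depend on depth, and histone genes have many counts. A band of 1.25-fold around DMSO, set after the values were seen, held 51 of the 61 genes with SFA and 57 with SFE. The same band held 65.6% and 69.9% of the 9394 genes with a mean of 100 counts or more and a count in every library. These sets were not matched in depth, and genes with fewer counts leave such a band more often through counting error.

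**Figure D2:**
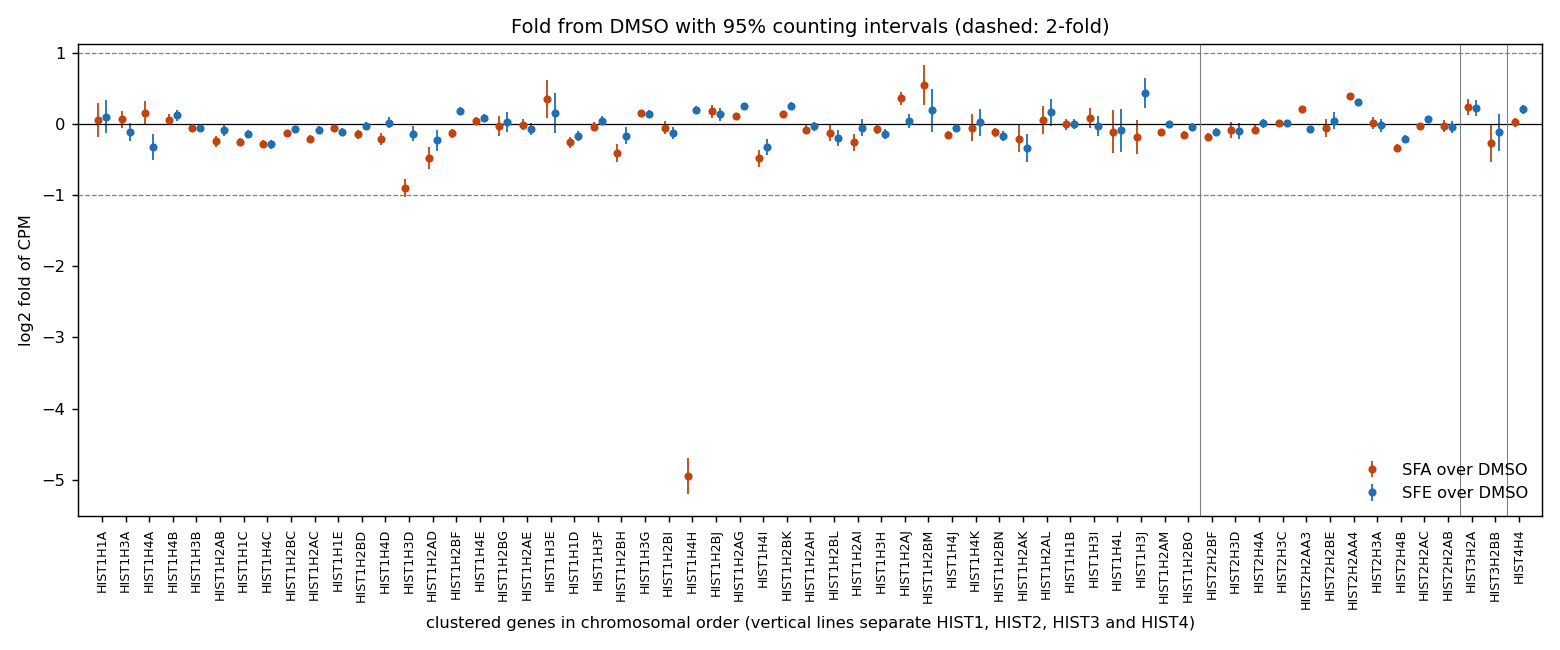
Log2 fold of CPM against DMSO for the 61 clustered genes that passed, in chromosomal order within each cluster (red SFA, blue SFE; bars are 95% counting intervals, dashed lines 2-fold). Apart from HIST1H4H with SFA, every point lies between the dashed lines, and HIST1H3D with SFA is the next lowest at a fold of 0.54.

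Between the treated libraries, whose doses differ, 37 clustered genes were higher and 24 lower with SFE than with SFA, with a median log2 difference of 0.06. Over all 11680 genes, 6494 were higher and 5178 lower, with a median of 0.02. The split of the clustered genes was 35 higher and 26 lower under TMM and 34 and 27 under median-ratio scaling. Only HIST1H4H was at least 2-fold apart, higher with SFE, and none was lower, against 0.676% and 0.616% of all genes. The band of 1.25-fold held 56 of the 61, against 85% of the 9394 genes, again not matched in depth.

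Summed over all 70 clustered genes, the DMSO, SFA and SFE libraries had 292550, 204825 and 214609 counts. Per library total this is a fold of 0.963 with SFA (0.958 to 0.969) and 1.009 with SFE (1.003 to 1.015). Without HIST1H4H the SFA value was 0.981. The HIST1 cluster on chromosome 6, with 55 coding members, stood at 0.921 with SFA and 0.998 with SFE. The HIST2 cluster on chromosome 1, with 11, stood at 1.06 and 1.03. The HIST1 sum holds HIST1H4H, at a fold of 0.0325 with SFA. The HIST2 sum holds HIST2H2AA3 and HIST2H2AA4, together at 1.23 with SFA. The gap between the cluster sums with SFA therefore cannot be read as one shared by the genes of each cluster. With scaling by TMM or median-ratio size factors, the SFE value of all clustered genes moved from just above 1 to 0.981, so no direction can be given for it.

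Linker histones were lower in both treated libraries as a sum, with folds of 0.909 (0.891 to 0.927) with SFA and 0.929 (0.911 to 0.947) with SFE. HIST1H1D, at chr6:26234268-26234933, had 3514, 2133 and 2272 counts in the DMSO, SFA and SFE libraries. It was the H1 gene with the largest difference, at a fold of 0.835 with SFA (0.791 to 0.882) and 0.889 with SFE (0.843 to 0.938). HIST1H1C stood at 0.842 and 0.908 and HIST1H1E at 0.960 and 0.929. HIST1H1B stood at 0.996 and 1.001, with 3691, 2672 and 2686 counts. HIST1H1A, the lowest of the 5 that passed, had 339, 256 and 265 counts and stood at 1.04 and 1.08. Thus 3 of the 5 had intervals below 1 with each compound and 2 did not.

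H2A genes summed to a fold of 1.05 with SFA (1.04 to 1.06) and 1.05 with SFE (1.04 to 1.06). The SFA value lay above 1 through the near-identical genes HIST2H2AA3 and HIST2H2AA4: without them it was 0.971, and without the members that overlap another listed gene 0.987. With SFE the sum without these genes was 1.03. HIST2H2AA3 had 17672, 14849 and 12200 counts and HIST2H2AA4 had 15056, 14366 and 13570. Taken alone, HIST2H2AA3 stood at 1.16 with SFA and 0.950 with SFE, and HIST2H2AA4 at 1.31 and 1.24. All of the 50-base stretches of HIST2H2AA3 and 97.1% of those of HIST2H2AA4 also occur in another transcript, chiefly each other's, so how reads were divided between them is uncertain. Their sum is free of that division and gave a fold of 1.23 with SFA (1.21 to 1.25) and 1.08 with SFE (1.07 to 1.10). HIST2H2AC and HIST1H2AM, the most highly expressed H2A genes, stood at 0.978 and 0.927 with SFA and at 1.05 and 0.999 with SFE. HIST2H2AC shares 30.5% of its 50-base stretches with HIST2H2AA3 and HIST1H2AM 86.3% with HIST1H3J, which also bears on their levels given above.

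The lowest H2A fold with SFA was that of HIST1H2AD, at chr6:26198851-26199243, with 978, 512 and 608 counts. Its fold was 0.720 with SFA (0.646 to 0.802) and 0.855 with SFE (0.771 to 0.947). HIST1H3D, an H3 gene beside it at chr6:26196840-26197250, had 1846, 718 and 1221 counts. It was the H3 gene with the largest difference, at 0.535 with SFA (0.490 to 0.584) and 0.910 with SFE (0.846 to 0.978). Both lie within RP1-34B20.21, a listed gene with 14245, 9350 and 8867 counts whose transcripts contain 100% of the 50-base stretches of HIST1H3D and 98.0% of those of HIST1H2AD. Reads of the 3 genes cannot be told apart with certainty, and their summed counts of 17069, 10580 and 10696 gave folds of 0.853 with SFA and 0.862 with SFE. The gap between the compounds seen for HIST1H3D alone is not seen in that sum.

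H2B genes summed to a fold of 0.939 with SFA (0.927 to 0.951) and 0.998 with SFE (0.986 to 1.01). Of the 15 that passed, 12 were lower with SFA and 9 with SFE. HIST1H2BM, at chr6:27815044-27815424, was the H2B gene farthest from DMSO, with 207, 219 and 172 counts. Its fold was 1.46 with SFA (1.198 to 1.77) and 1.14 with SFE (0.928 to 1.41), and it shares no 50-base stretch with another gene. The highly expressed HIST1H2BO had 8798, 5759 and 6233 counts (0.901 and 0.974), and HIST1H2BK had 6008, 4790 and 5212 (1.10 and 1.19). Of the 50-base stretches of HIST1H2BK, 74.1% also occur in other transcripts, 61.4% in those of H2BFS, which is not a member. HIST1H2BH had 1505, 824 and 977 counts and gave the lowest H2B fold with SFA, 0.753.

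H3 genes summed to 0.981 with SFA (0.968 to 0.994) and 0.992 with SFE (0.979 to 1.01). The 14 genes encode 3 proteins. HIST1H3B, with 17851, 12500 and 12503 counts, stood at 0.963 in both treated libraries. HIST1H3F, with 4817, 3402 and 3616 counts, stood at 0.972 and 1.03. The near-identical copies HIST2H3A and HIST2H3C share all their 50-base stretches, and their summed counts of 11816, 8682 and 8620 gave folds of 1.01 and 1.003. HIST1H3J stood at 0.883 with SFA and 1.35 with SFE, but its deposited span overlaps HIST1H2AM, which had 16138 counts with DMSO against 374 for HIST1H3J.

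H4 genes summed to 0.810 with SFA (0.799 to 0.822) and 0.991 with SFE (0.977 to 1.004). Without HIST1H4H the SFA fold was 0.912 (0.898 to 0.926), and the folds of the other 12 genes that passed ran from 0.716 (HIST1H4I) to 1.11 (HIST1H4A). With SFE the sums of H2B, H3 and H4 lay on either side of 1 depending on the setting: they were 0.970, 0.964 and 0.963 under TMM, while H2B and H4 were both 1.05 without overlapping members and H3 was 1.008 without HIST1H3B. HIST1H4C, among the most abundant, had 5858, 3497 and 3490 counts and stood at 0.821 with SFA and 0.819 with SFE. HIST1H4J had 6208, 4040 and 4349 counts and stood at 0.895 and 0.964, or at 0.901 and 0.968 when summed with HIST1H4K, with which it shares most of its sequence. HIST2H4A and HIST2H4B, also near-identical, summed to 11570, 7269 and 7820 counts, or 0.864 and 0.930.

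HIST1H4H, at chr6:26277609-26285638 on the minus strand, had 5596 counts in the DMSO library, 132 in the SFA library and 4657 in the SFE library. In FPKM these were 82.97, 2.69 and 94.97. Only the SFA library was low. The DMSO level was 30.8-fold above the SFA level (25.9 to 36.9), while the SFE level was 1.14-fold above DMSO (1.10 to 1.19) and 35.3-fold above SFA (29.7 to 42.3). HIST1H4H made up 11.6%, 0.463% and 13.4% of the H4 counts in the DMSO, SFA and SFE libraries. The gene shares no 50-base stretch with any other transcript and overlaps no other listed gene. Its protein of 103 residues is identical to that of 13 other H4 genes, and the counts of those 14 genes together gave a fold of 0.810 with SFA.

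Neighbours of HIST1H4H did not show the low SFA value. HIST1H2BI, 4252 bases away, had 2693, 1890 and 1796 counts (0.966 and 0.917). HIST1H3G, 5793 bases away, had 6264, 5050 and 5013 (1.11 and 1.10). The other genes within 50 kb with more than 100 counts were HIST1H2BH, at 0.753 and 0.893, HIST1H3F and HIST1H1D. The H4 element and hairpin printed above for HIST1H4H are also those of HIST4H4, which had 4624, 3419 and 3871 counts and stood at 1.02 with SFA and 1.15 with SFE. With 1 library, a difference between cultures cannot be told apart from one of SFA.

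**Figure D3:**
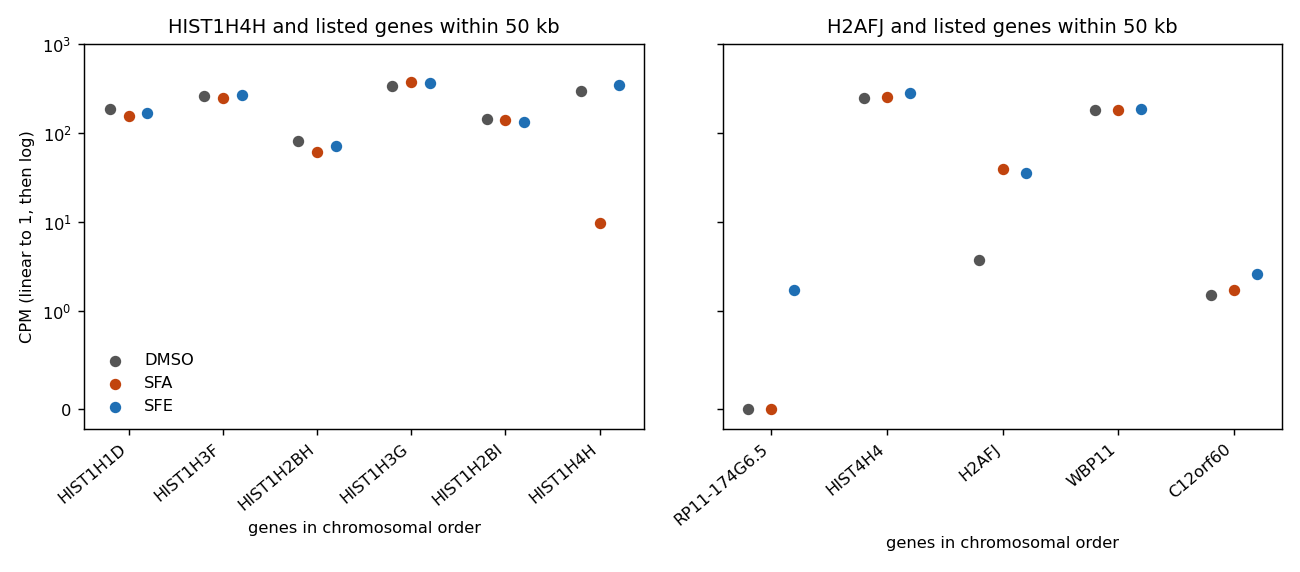
CPM (linear to 1, then log) of HIST1H4H and H2AFJ with the listed genes within 50 kb that have at least 20 counts in a library, in chromosomal order (grey DMSO, red SFA, blue SFE). HIST1H4H is low with SFA alone and H2AFJ low with DMSO alone, while the histone genes beside each lie close together in the 3 libraries.

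Many H2A and H2B genes stand head to head with a shared stretch between their starts. Of 11 such pairs, with starts 194 to 248 bases apart, 10 had both genes past 1 FPKM. With SFA both genes were lower in 7 pairs, both higher in 2 and opposite in 1. With SFE both were lower in 4, both higher in 3 and opposite in 3. Of all clustered genes that passed, 10 of 16 H2A and 12 of 15 H2B genes were lower with SFA. With SFE, 10 and 9 were lower. How often partners agree beyond those shares was not tested. HIST1H2AK lies within the span of HIST1H2BN, which holds 100% of its 50-base stretches, so reads of that pair cannot be told apart with certainty. The median gap between partners was 0.08 log2 units with SFA and 0.14 with SFE. HIST1H2AJ and HIST1H2BM were the pair highest with SFA, with log2 differences of 0.36 and 0.53, and stood at 0.04 and 0.19 with SFE. However, HIST1H2AJ shares 83.7% of its 50-base stretches with HIST1H2AI, whose log2 difference with SFA was −0.25. Summed counts of HIST1H2AJ and HIST1H2AI gave folds of 1.09 with SFA and 1.002 with SFE. Each is a partner in a counted pair, so how their reads were divided also bears on the pair counts. HIST1H2AG and HIST1H2BJ were also both higher, at 0.11 and 0.17 with SFA and 0.26 and 0.13 with SFE. Partners differ in level: HIST2H2AC had 18616 counts with DMSO and its partner HIST2H2BE had 1288.

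Shared sequence limits what single clustered genes can show. Of the 70, 16 share at least 50% of their 50-base stretches with another gene, 47 share under 10% and 30 share none, and 24 overlap another listed gene. The 47 genes that share little summed to 0.924 with SFA (0.917 to 0.932) and 1.004 with SFE (0.997 to 1.01). The 70 genes encode 36 different proteins. Counts of all 10 genes for the H3 protein of HIST1H3B summed to 0.973 and 0.991, and those of the 5 genes for the H2A protein of HIST1H2AG to 0.989 and 1.08.

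Of the 16 coding variants, 9 reached 1 FPKM. The other 7 (H1FNT, H1FOO, H2AFB1, H2AFB2, H2AFB3, H2AFY2 and H3F3C) had at most 6 counts, and 3 were at 0 throughout. With SFA, 5 of the 9 were higher and 4 lower, with a median log2 difference of 0.00. With SFE, 4 were higher and 5 lower, with a median of −0.02. At least 2-fold higher was 1 variant with each compound, H2AFJ, against 1.36% and 1.37% of all genes, and none was 2-fold lower, against 1.34% and 1.01%. Between SFE and SFA no variant was 2-fold apart, against 0.676% and 0.616%. Summed counts of all variants were 28587, 20661 and 19741. These gave folds of 0.994 with SFA and 0.950 with SFE, or 0.971 and 0.929 without H2AFJ. The direction depends on which members are summed: without those that overlap another listed gene the folds were 1.16 and 1.21, and without H2AFZ the SFE value was 1.02.

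H2AFJ encodes H2A.J, an H2A variant whose protein is 95.4% identical to that of HIST1H2AC. It lies at chr12:14774383-14778002 on the plus strand and had 69 counts in the DMSO library, 531 in the SFA library and 479 in the SFE library. In FPKM these were 0.81, 8.58 and 7.74. Both treated libraries were high. The fold of SFE over SFA was 0.902 (0.795 to 1.02), and 0.876 (0.773 to 0.993) under TMM, so whether they differ beyond counting error depends on the scaling. Against DMSO the folds were 10.6 with SFA (8.23 to 13.8) and 9.55 with SFE (7.41 to 12.5). Both rest on the same 69 counts with DMSO. H2AFJ shares no 50-base stretch with another gene and overlaps none. On the other side, 3251 bases away, HIST4H4 stood at 1.02 and 1.15, and WBP11, a splicing factor gene downstream, at 0.994 and 1.02. The other listed genes within 50 kb had at most 35 counts. Among them, C12orf60 had 28, 23 and 35 (1.13 and 1.72), and RP11-174G6.5, 6451 bases away, had 0, 0 and 23.

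H2AFZ and H2AFV encode the H2A.Z proteins, which mark promoters and are 97.7% identical. H2AFZ, at chr4:99948086-99950388, had 6172, 4581 and 3147 counts, or 50.8, 51.9 and 35.6 FPKM. Only the SFE library was low. Its fold was 1.02 with SFA (0.983 to 1.06) and 0.701 with SFE (0.672 to 0.732), and 0.687 for SFE over SFA (0.656 to 0.719). The listed gene that overlaps H2AFZ had at most 4 counts. H2AFV, at chr7:44826791-44848083, had 1595, 979 and 996 counts and was lower in both treated libraries, at 0.845 (0.779 to 0.915) and 0.859 (0.793 to 0.930).

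H2AFX, which is phosphorylated at DNA breaks, lies at chr11:119093854-119095467 and had 4246, 3495 and 3757 counts, or 75.7, 85.8 and 92.2 FPKM. Both treated libraries were above DMSO, at 1.13 (1.08 to 1.19) and 1.22 (1.16 to 1.27). H2AFY, at chr5:135333900-135399914, encodes macroH2A1, which carries a large extra domain and is known from silent chromatin. It had 5108, 3454 and 3657 counts and stood at 0.930 (0.891 to 0.972) and 0.985 (0.944 to 1.03).

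H3F3A and H3F3B encode the same H3.3 protein of 136 residues, which is placed in chromatin outside replication and is 96.3% identical to the protein of HIST1H3B. H3F3A, at chr1:226061851-226072001, had 5747, 3718 and 3607 counts, at 0.890 with SFA (0.854 to 0.928) and 0.863 with SFE (0.828 to 0.900). H3F3B, at chr17:75776434-75785893, had 4735, 3179 and 3334, at 0.924 (0.883 to 0.966) and 0.968 (0.926 to 1.01). Their sum stood at 0.905 and 0.911. H3F3A shares 11.7% of its 50-base stretches with other transcripts, chiefly a pseudogene, and H3F3B overlaps UNK.

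H1F0 and H1FX are linker variants of cells at any stage of the cycle. H1F0, at chr22:37805093-37807436, had 385, 280 and 314 counts, at 1.001 (0.855 to 1.17) and 1.12 (0.963 to 1.30), so neither differed from DMSO beyond counting error. H1FX, at chr3:129314771-129316277, had 527, 435 and 441, at 1.14 (0.998 to 1.29) and 1.15 (1.01 to 1.31).

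By length-scaled level with DMSO, the variants ran from H2AFZ (143) and H2AFX (140) through H3F3A (97.3), H3F3B (41.1), H1FX (18.6), H2AFV (17.9), H2AFY (15.4) and H1F0 (8.75) to H2AFJ (1.10). With SFE, H2AFX stood at 171 and H2AFZ at 100, and H2AFJ at 10.5 was above H1F0 at 9.82. The gaps between H2AFZ and H2AFX and between H1FX and H2AFV with DMSO, between H2AFV and H2AFY with SFA and with SFE, and between H2AFJ and H1F0 with SFE are within their counting error.

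**Figure D4:**
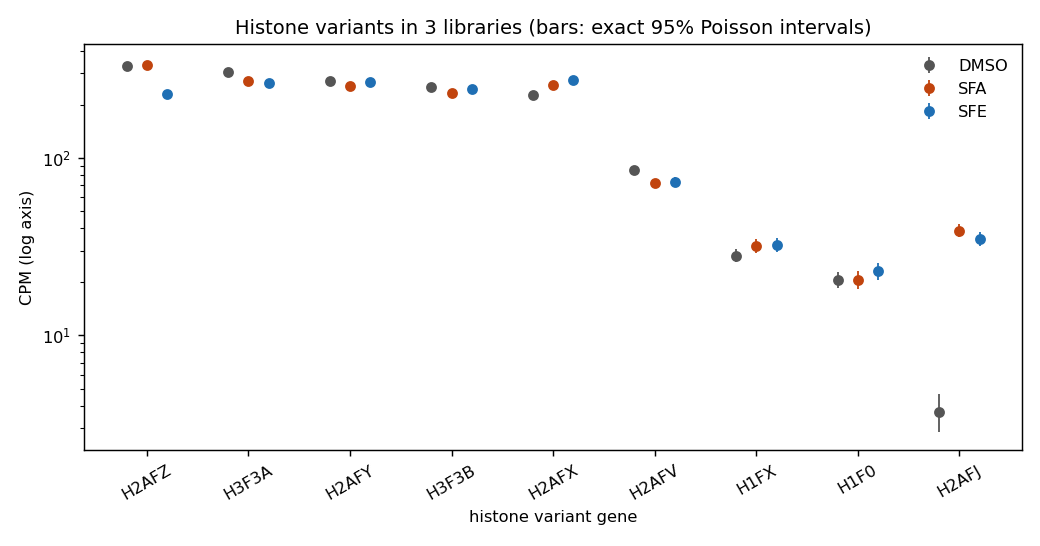
CPM (log axis) of the 9 histone variants that passed, in order of their DMSO value (grey DMSO, red SFA, blue SFE; bars are exact 95% Poisson intervals). H2AFJ stands at 3.68 with DMSO and at 38.9 and 35.1 with SFA and SFE, H2AFZ is lower with SFE alone, and the other 7 lie close together.

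The 6 noncoding members had few counts. HIST2H2BA, HIST2H2BB, HIST2H2BC, HIST2H2BD and HIST3H2BA had at most 95 counts in a library. HIST2H2BB had 95, 41 and 34, at folds of 0.594 with SFA (0.401 to 0.865) and 0.492 with SFE (0.323 to 0.735). Of its 50-base stretches, 94.8% also occur in other transcripts. The antisense RNA H1FX-AS1, which overlaps H1FX, had 43, 37 and 67, at 1.18 (0.742 to 1.88) and 2.14 (1.44 to 3.22). Neither HIST2H2BB nor H1FX-AS1 was 2-fold apart from DMSO on the log2(FPKM + 1) scale.

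A list of 59 genes that make, process, destroy or carry histones was set beside the members, and 58 of them passed 1 FPKM. With SFA, 20 were higher and 38 lower (median log2 difference −0.09), and with SFE 25 were higher and 33 lower (median −0.07). Over all genes the medians were 0.01 and 0.03, with more genes higher than lower in each comparison (6002 against 5672 with SFA and 6445 against 5228 with SFE). None of the 58 was 2-fold apart from DMSO on the log2(FPKM + 1) scale, to be read against the small shares of all genes given above. Of 5 genes of histone gene transcription, 3 had intervals below 1 with SFA (NPAT, CASP8AP2 and CRAMP1), against 23.4% of 16388 genes. GON4L stood at 0.907 (0.814 to 1.01) and HINFP at 0.999 (0.877 to 1.14). With SFE, CASP8AP2 at 0.674 (0.527 to 0.859) and GON4L at 0.861 (0.772 to 0.961) lay below 1, against 19.6% of genes. CRAMP1 was above DMSO with SFE, at 1.25 (1.13 to 1.38). NPAT at 0.844 (0.703 to 1.01) and HINFP at 0.915 (0.801 to 1.05) did not differ beyond counting error with SFE. NPAT, the coactivator that gathers at histone loci in S phase, had 321, 181 and 197 counts, with log2 differences of −0.21 and −0.14. Among 16 genes of 3′ end processing, 9 were higher with SFA and 10 with SFE. SLBP had 632, 502 and 509 counts, with folds of 1.09 (0.970 to 1.23) and 1.11 (0.984 to 1.25), not beyond counting error. MBLAC1, the nuclease reported to cut histone pre-mRNA, had only 40, 55 and 45 counts, with log2 differences of 0.52 and 0.34. Of 8 genes of decay, 7 were lower with SFA and 6 with SFE.

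Among 17 chaperones and carriers of replication-coupled deposition, 7 were higher with SFA and 6 with SFE. ASF1A, a carrier of H3 and H4, had 356, 387 and 330 counts, with log2 differences of 0.52 and 0.31. IPO4, which imports H3 and H4 into the nucleus, had 3087, 1680 and 1477 counts (−0.39 and −0.56). Of 12 genes of replication-independent deposition that passed, 3 were higher with SFA and 6 with SFE. DEK, a chaperone of H3.3, had 1099, 369 and 547 counts, with log2 differences of −0.96 and −0.49. On counts per library its fold was 0.462 with SFA (0.409 to 0.520) and 0.685 with SFE (0.617 to 0.759). Of the 5 listed genes that handle H2A.Z, VPS72 and ANP32E were lower in both treated libraries and the others were not. VPS72 had 1367, 572 and 596 counts (−0.71 and −0.66) and ANP32E had 1021, 555 and 476 (−0.33 and −0.50). SRCAP stood at folds of 0.932 with SFA and 1.07 with SFE, EP400 at 1.005 and 1.006, and ZNHIT1 at 1.16 and 1.03.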

How the data were processed

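RNA was sequenced from 3 libraries of AGS cells, 1 per condition. HISAT2 2.0.4, StringTie 1.2.3 and hg38 are named per the submitters' processing notes. No source used here gives the counting tool, its strand setting or the annotation release. The authors deposited 1 table that holds raw counts and FPKM for each gene. The deposited FPKM is the count divided by the library total and by 1 length per gene. That length exceeded the merged exon length for all 24 members with several overlapping transcripts, so levels between genes were recomputed on merged exons of GENCODE 29; folds are not touched by it. Many annotated histone genes hold the coding part only, which also bears on such levels.

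Genes at 1 FPKM or more in a library were compared on log2(FPKM + 1), the identifier with the highest mean FPKM standing for a repeated name. Folds are ratios of counts per library total with 95% Clopper-Pearson intervals, which cover counting error only. A floor of 3 counts equals 0.160 CPM in the DMSO library and 0.220 in either treated library. Total counts ranged from 13639844 to 18767232. No p-value was computed. Alternatives were other pseudocounts and filters, TMM (edgeR 4.0.16), median-ratio size factors (DESeq2 1.42.0), and leaving out overlapping genes, single members or members with shared sequence. The 50-base matching covered GENCODE 29 transcripts on both strands, and protein identity was computed from their coding sequences. Python 3.11.15 and SciPy 1.17.1 were used. The interval and fold were checked on simulated data.

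The name rule read endings such as PS1 as pseudogenes. Named were all variants that passed, the 10 clustered genes with the highest mean FPKM, any clustered gene 2-fold apart, the gene with the largest difference in each class, and 6 genes of the histone supply list with SLBP and NPAT. Relatives, neighbours, copies and pair partners of these, genes at the ends of a range and other genes of small groups in the supply and marker lists were named after their values were seen. The members and lists were chosen with earlier results of these data known.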

Additional observations from a re-analysis of the deposited data

How the results depend on the processing

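No paired analysis was possible because each condition has 1 library, and for the same reason no library could be left out. The counts of members at least 2-fold higher or lower were the same under every alternative run: pseudocount 0.1 FPKM, filters of 5 FPKM or none, TMM, median-ratio size factors, ratios of CPM, and members without an overlapping gene. Median log2 differences of the variants against DMSO moved to 0.089 with SFA and 0.21 with SFE when members that overlap another gene were left out. All other shifts of medians were smaller than the median member's counting error (0.064 to 0.086 log2 units). Among them, under TMM, the clustered median went from −0.035 to −0.076 for SFE against DMSO and from 0.057 to 0.016 for SFE against SFA, and the variants' median for SFE against SFA went from 0.022 to −0.016, a change of sign. The summed fold of clustered genes with SFA was 0.945 without overlapping members, 0.981 without HIST1H4H and 0.924 for members sharing under 10% of their sequence, against 0.963. With SFE it was 0.981 under TMM and under median-ratio factors and 1.03 without overlapping members, against 1.01. For SFE over SFA it was 1.05, and 1.02 under both scalings, 1.08 without overlapping members, 1.03 without HIST1H4H and 1.09 for members sharing little. The variants' summed fold with SFA was 1.16 without overlapping members and 0.971 without H2AFJ, against 0.994. With SFE it was 0.923 under both scalings, 1.02 without H2AFZ (the variant with the most counts), 1.21 without overlapping members and 0.929 without H2AFJ, against 0.950. For SFE over SFA it was 0.955, and 0.928 under TMM, 0.927 under median-ratio factors, 1.03 without H2AFZ and 1.05 without overlapping members. These shifts come from which members were summed or from the scaling factor itself. Leaving out HIST1H4H, H2AFJ, HIST2H2AA3 with HIST2H2AA4, or members with shared sequence was chosen after seeing the data. At 13639844 counts, a gene under 3 counts is not detectable.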

Other observations

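Gene lengths implied by the deposited FPKM were compared with GENCODE 29. Among 12879 genes with at least 20 counts with DMSO and the same span, the implied length exceeded the whole span of the gene for 1253. Among the histones this held for 5 members (H2AFX, H2AFZ, H2AFJ, H3F3B and HIST4H4). For 14 of the 24 members with several overlapping transcripts it equalled the summed length of the transcripts. Over all genes whose transcripts overlap, the median implied length was 1.58 times the merged exon length. FPKM of such genes is therefore lower than counts per merged exon length would give, in each library alike.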
